A study of Rattus norvegicus with 28 samples.

Results

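Mid-length lamina domains are the intervals of at least 300 kb and under 1000 kb, on chromosomes 1 to 20, in the list of lamina-associated domains (LADs) of control adult rat cardiomyocytes. They were chosen by length and chromosome alone, without expression values, and numbered 520 of 1883 intervals in the list. The study infected cardiomyocytes, isolated from rats aged 6 to 8 months and cultured for 48 h, with adenovirus. RNA came from 3 libraries with an shRNA against desmin (shDesmin RNA) and 3 libraries with a null virus (null RNA). Lamin B ChIP and input samples came from shDesmin cells and from cells with a scrambled shRNA. The LAD list describes only the scrambled control, from 3 replicates pooled with their inputs, so a domain's state in shDesmin cells is not described here, and the null virus of the RNA controls is not the scrambled virus of the mapped cells. No label states that replicates came from separate animals or cultures, so p-values measure only the spread between these libraries, which may be technical.

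LADs are stretches of chromatin that lie against the nuclear lamina, the mesh of lamin proteins under the inner nuclear membrane. They are generally gene-poor, replicate late and hold many silent or weakly transcribed genes. In cardiomyocytes desmin filaments run between the Z-discs, the intercalated discs and the nuclear surface, where linker proteins connect the cytoskeleton to the lamina.

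Des, the targeted gene, stood at 9.10, 9.13 and 9.32 log2 CPM in the shDesmin libraries, against 12.57, 12.55 and 12.60 log2 CPM in the null libraries, a log2 change of -3.39 (SE 0.10), or 10.5-fold lower. All 6 libraries therefore matched their labels for this gene. CPM here are counts of reads relative to each library's total after the authors' scaling, not per transcript length. Reads over listed genes ranged from 9168307 to 9817421 in the shDesmin libraries and from 8724543 to 10908458 in the null libraries. The authors' scale factors, which multiply each library's total, were 0.73 to 0.83 in shDesmin and 1.17 to 1.42 in null libraries, so that equal reads give a higher level in shDesmin libraries. Mitochondrially encoded genes took 35.0% to 39.1% of reads in shDesmin libraries and 24.7% to 34.5% in null libraries. Of 8 cardiomyocyte markers 7 were in the table, none of them in a domain of the numbered chromosomes. All 7 were higher in shDesmin RNA. Their summed level was 15.26 to 15.48 log2 CPM in shDesmin and 13.68 to 14.00 log2 CPM in null libraries. Markers of other heart cells moved too. Fibroblast markers (3 of 8 in the table, 3 higher) summed to 3.95 to 4.62 log2 CPM in shDesmin and 1.56 to 3.29 log2 CPM in null libraries. Smooth muscle and pericyte markers (6 of 8, 5 higher) summed to 9.06 to 9.78 log2 CPM in shDesmin and 7.86 to 8.60 log2 CPM in null libraries. Endothelial markers (7 of 8, 4 higher, 1 lower) summed to 7.97 to 8.53 log2 CPM in shDesmin and 7.05 to 7.76 log2 CPM in null libraries. Macrophage and leukocyte markers (3 of 8, 1 lower) summed to 1.98 to 2.37 log2 CPM in shDesmin and 4.09 to 4.16 log2 CPM in null libraries, and Schwann and neuronal markers (3 of 8, 2 lower) to 2.09 to 2.80 log2 CPM in shDesmin and 2.85 to 3.28 log2 CPM in null libraries. Markers without values in the table are not analysed here. The part of these shifts in the changes below was not tested, and in such bulk RNA fewer cells of a type and less RNA per cell cannot be told apart.

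Promoter sequences, from 250 bases before to 50 after the gene start, are shown for members that the results turn on. They come from RefSeq (build GRCr8), while the domains are on rn6, and are printed 5′ to 3′ on the gene's own strand. Mut, Cenpq and Trdn are shown because they were counted inside mid-length domains, were called higher in shDesmin RNA and differ in CpG content. Only 78.2% of Trdn was covered: its domain ends at chr1:25744199, and the gene runs on to chr1:25839345. If Trdn is on the minus strand on rn6 too, its start and the window shown lie at that end, outside the domain. CG dinucleotides are in capitals. Mut and Cenpq are divergent neighbours whose windows share 285 bases, and each window holds 25 CG dinucleotides, against 0 in the Trdn window.
Mut (chr9:27454074-27454373, minus strand): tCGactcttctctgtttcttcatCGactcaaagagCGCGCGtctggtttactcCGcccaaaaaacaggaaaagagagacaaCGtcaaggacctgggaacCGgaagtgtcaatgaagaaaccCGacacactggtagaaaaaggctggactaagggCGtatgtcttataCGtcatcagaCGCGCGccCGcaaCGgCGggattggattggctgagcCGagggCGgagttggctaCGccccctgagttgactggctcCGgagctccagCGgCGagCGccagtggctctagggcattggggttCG
Cenpq (chr9:27454089-27454388, plus strand): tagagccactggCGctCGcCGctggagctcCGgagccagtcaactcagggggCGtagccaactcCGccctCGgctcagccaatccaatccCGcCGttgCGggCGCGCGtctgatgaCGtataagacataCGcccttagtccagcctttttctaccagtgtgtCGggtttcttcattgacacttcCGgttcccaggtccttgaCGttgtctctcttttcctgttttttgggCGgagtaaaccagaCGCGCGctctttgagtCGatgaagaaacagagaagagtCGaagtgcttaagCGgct
Trdn (chr1:26229550-26229849, minus strand): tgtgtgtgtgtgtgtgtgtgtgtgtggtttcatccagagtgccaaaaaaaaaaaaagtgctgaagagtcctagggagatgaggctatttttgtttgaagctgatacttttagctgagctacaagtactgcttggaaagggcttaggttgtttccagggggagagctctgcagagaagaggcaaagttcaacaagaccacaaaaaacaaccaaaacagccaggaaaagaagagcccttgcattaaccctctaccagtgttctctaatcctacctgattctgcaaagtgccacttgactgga
The CXC chemokine genes Cxcl1 and Cxcl2 are shown as neighbours in 1 domain. Capitals mark GGGA and TTCC parted by any 2 bases, an NF-κB type motif, searched on both strands, where overlapping matches are merged and the bases between are included. The Cxcl1 window holds 2 overlapping matches between positions 167 and 177, counted from its first base, and the Cxcl2 window holds none with this spacing. The Cxcl2 window does hold GGGA and TTCC parted by 1 base, which the search did not count, so the windows are not told apart by such motifs. The motif occurs in 435 of 33469 RefSeq rat promoter windows of the same length (1.3%), and in 3 of the 86 windows found for the 125 tested genes of mid-length domains. A match is a description of letters only.
Cxcl1 (chr14:17479272-17479571, minus strand): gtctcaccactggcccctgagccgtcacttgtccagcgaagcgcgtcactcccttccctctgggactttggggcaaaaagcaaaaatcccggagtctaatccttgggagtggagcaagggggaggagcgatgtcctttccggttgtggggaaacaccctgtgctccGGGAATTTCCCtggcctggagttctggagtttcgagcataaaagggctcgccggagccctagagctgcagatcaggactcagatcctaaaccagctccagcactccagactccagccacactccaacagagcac
Cxcl2 (chr14:17467206-17467505, minus strand): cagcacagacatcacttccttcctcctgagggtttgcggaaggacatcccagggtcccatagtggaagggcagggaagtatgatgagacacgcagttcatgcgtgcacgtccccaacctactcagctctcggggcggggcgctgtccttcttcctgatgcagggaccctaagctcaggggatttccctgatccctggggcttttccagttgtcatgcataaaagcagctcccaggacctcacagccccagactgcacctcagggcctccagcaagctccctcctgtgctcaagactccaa

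The 520 domains covered 288 Mb, which was 26.2% of the length of all 1638 domains on chromosomes 1 to 20 and 11.0% of the 2617 Mb spanned by domains and genes there. They made up 31.7% of those domains, between 792 shorter domains (median 136 kb) and 326 domains of 1 Mb or more (median 1786 kb). Their length ran from 300.6 to 997.2 kb with a median of 514 kb and quartiles of 399 and 686 kb. Short members were the more frequent. There were 133 domains of 300 to 400 kb and 115 of 400 to 500 kb, but 23 of 900 to 1000 kb. The longest lay at chr14:51530401-52527599 between 2 megabase domains, with gaps of 133 and 55.8 kb, and no gene of the RNA table touched it. At the lower bound, 2 domains measured 300.599 kb, chr2:220656001-220956599 and chr7:27648601-27949199, again without a gene inside. Just outside the bounds lay a domain of 299.399 kb that touches Cav1, the gene of the caveolar coat protein caveolin-1, and a domain of 1000.199 kb that touches Plscr1.

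The gaps on the 2 sides of a mid-length domain were often unequal. The gap to the nearer domain of any length had a median of 108 kb (quartiles 67.7 and 277 kb), and the gap to the farther had a median of 576 kb (quartiles 206 and 1640 kb). The median nearer gap was 127 kb for shorter and 108 kb for megabase domains, so spacing did not set the mid-length class apart from megabase domains. A neighbour under 100 kb away was found for 241 mid-length domains (46.3%), against 39.4% of the shorter and 46.0% of the megabase domains. For 57 the farther gap was also under 100 kb, and for 32 (6.15%) the nearest domain was over 1 Mb away. The 18 domains at an end of a chromosome's list have 1 neighbour, whose gap was counted as both nearer and farther. No gap in the list is below 50.4 kb, so the smallest gaps are those of the list itself. Of 1022 sides with a neighbour, 440 (43.1%) faced a shorter domain, 362 (35.4%) another mid-length domain and 220 (21.5%) a megabase domain, where these classes hold 48.4%, 31.7% and 19.9% of the domains. The median gap was 269 kb to a shorter, 220 kb to a mid-length and 165 kb to a megabase neighbour. Only 31 domains lay between 2 megabase domains, and 331 had none beside them. The most isolated, chr19:61788601-62207999, lay 13026 kb from the nearest domain.

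**Figure D1:**
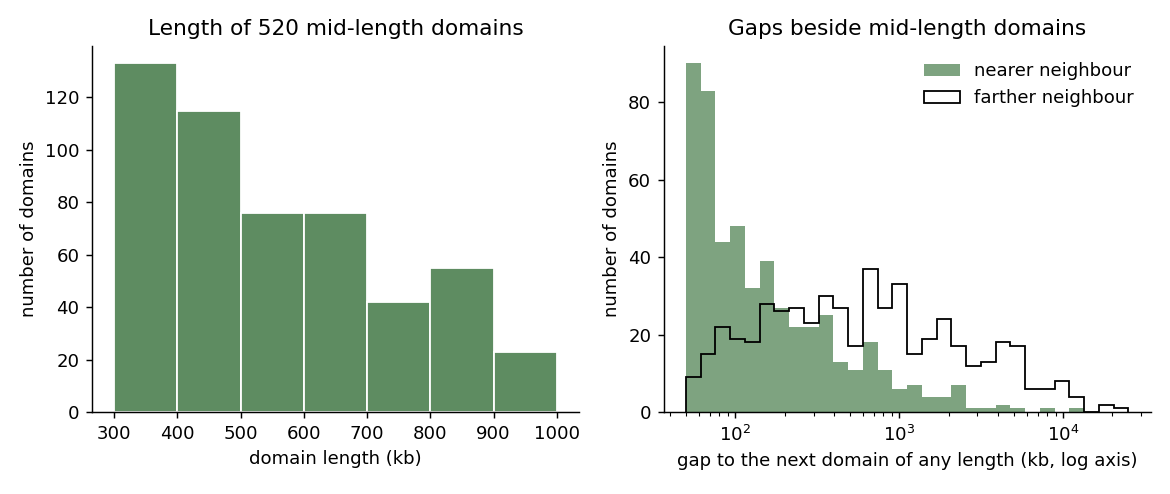
Left, number of mid-length domains per 100 kb of length (kb). Right, gap from each mid-length domain to its nearer neighbour (filled) and farther neighbour (line), in kb on a log axis. Lengths fall off from 133 domains at 300 to 400 kb to 23 at 900 to 1000 kb, and the median gaps are 108 and 576 kb.

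Density differed between chromosomes. Chromosomes 1 and 7 held 2.55 mid-length domains per 10 Mb each (72 and 37 domains), followed by chromosome 9 with 2.46 and chromosome 19 with 2.41. Chromosome 10 held the fewest, 1.07 per 10 Mb (12 domains), and domains of any length covered 22.7% of its span. Chromosome 17 (1.21 per 10 Mb, 11 domains) and chromosome 13 (1.32 per 10 Mb, 15 domains) were also sparse, while domains of any length covered 32.0% of the span of chromosome 17 and 45.9% of that of chromosome 13. As a share of all domains, the mid-length class was largest on chromosome 3 (43.8%) and smallest on chromosome 17 (19.3%).

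**Figure D2:**
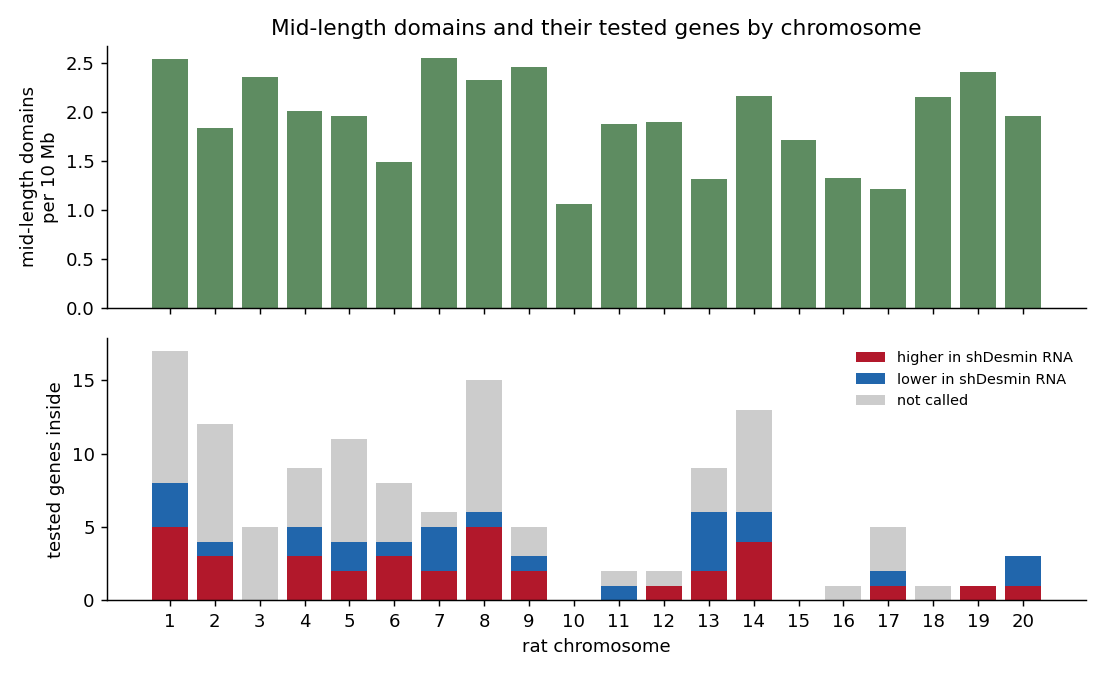
Upper, mid-length domains per 10 Mb on each rat chromosome. Lower, tested genes inside them, stacked by call (higher or lower in shDesmin RNA than in null RNA, or not called). Density runs from 2.55 on chromosomes 1 and 7 to 1.07 on chromosome 10, and chromosomes 10 and 15 hold no tested gene.

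Most mid-length domains held no gene with RNA values here. Of the 520, 392 (75.4%) were touched by no gene of the RNA table, and 96 (18.5%) held at least 1 gene, counted as inside where at least 50% of its length was covered. These 137 genes were 121 wholly and 16 partly covered genes, 128 of them protein coding. The RNA test took 125 of them, those above 0 log2 CPM in at least 3 of the 6 libraries. The other 12, among them Cnr1 (a cannabinoid receptor), Dio2 (a deiodinase that activates thyroid hormone) and Areg (an EGF-family ligand), had at most 21 reads in any library. The 125 tested genes lay in 88 domains, 65 of which held 1 such gene, 14 held 2, 5 held 3, 3 held 4 and 1 held 5. Tested genes numbered 4.34 per 10 Mb of mid-length domain, 4.47 in shorter domains, 3.06 in megabase domains and 67.4 per 10 Mb outside all domains. The density in mid-length domains was thus close to that in shorter domains and far below that outside. Chromosome 1 contributed 17 tested genes, chromosome 8 15, chromosome 14 13, chromosome 2 12 and chromosome 5 11, and chromosomes 10 and 15 none.

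The genes inside took few reads. Their median level, the mean of 6 libraries, was 2.18 log2 CPM with quartiles of 0.89 and 3.79. It was 1.87 log2 CPM in shorter domains, 2.55 log2 CPM in megabase domains and 3.92 log2 CPM for genes touching no domain, all as reads per gene and not per transcript length. In single libraries the median of the 125 was 2.19, 2.28 and 2.29 log2 CPM in shDesmin and 2.12, 2.27 and 2.32 log2 CPM in null libraries, so the groups overlapped. Over all tested genes it was 3.77, 3.75 and 3.81 log2 CPM in shDesmin and 3.98, 3.95 and 3.94 log2 CPM in null libraries. All 137 genes together took 0.25% to 0.26% of the reads of shDesmin libraries and 0.27% to 0.32% of those of null libraries. Against this, 14 of the 125 genes had a mean of at least 5 log2 CPM. The top 5 were Rpl4 (8.99 log2 CPM), a protein of the large cytosolic ribosomal subunit, Fh, the fumarase of the citric acid cycle, Ppp2r1a, the scaffold subunit of protein phosphatase 2A, and Mrpl3 and Mrpl13, proteins of the large mitochondrial ribosomal subunit.

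In shDesmin RNA 35 genes of mid-length domains were higher (28.0%) and 24 were lower (19.2%) than in null RNA (limma over all tested genes, two-sided, Benjamini-Hochberg adjusted p under 0.05). Over all 11033 tested genes 27.5% were higher and 31.4% lower, 58.9% in all, so the higher share was near the background and the lower share below it. At least a 2-fold change was seen for 22 of the higher and 10 of the lower genes. The groups did not overlap for 77 of the 125 genes (61.6%), against 64.9% of all tested genes. The median log2 change was 0.09, against -0.04 over all tested genes. Megabase domains showed almost the same split, 65 higher (30.5%) and 41 lower (19.2%) of 213, while shorter domains had 10 higher and 6 lower of 52 and genes touching no domain had 27.2% higher and 32.4% lower. The median standard error of the log2 change was 0.25 for the 125 genes and 0.17 for all tested genes. At 3 to 5 log2 CPM it was 0.17 for members and 0.16 for all. Among genes of at least 3 log2 CPM, 17 of 44 were higher and 9 lower (59.1% called), beside 64.3% of all such genes. By level, the called share of mid-length and of all tested genes was 32.5% and 42.7% below 1 log2 CPM, 48.8% and 52.4% from 1 to 3, 46.7% and 61.3% from 3 to 5, and 85.7% and 67.6% at 5 or more. In that last bin 9 of 14 genes were higher (64.3%) and 3 lower (21.4%), where all tested genes of that level also leaned higher, with 45.1% higher and 22.5% lower. The split of calls depended on the scaling. With each library scaled to its total of reads 11 genes were higher and 59 lower (all tested genes, 802 and 6892). With median centring 47 were higher and 17 lower (all tested genes, 3974 and 2698), and with quantile normalization 45 and 17 (all tested genes, 3111 and 3185).

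**Figure D3:**
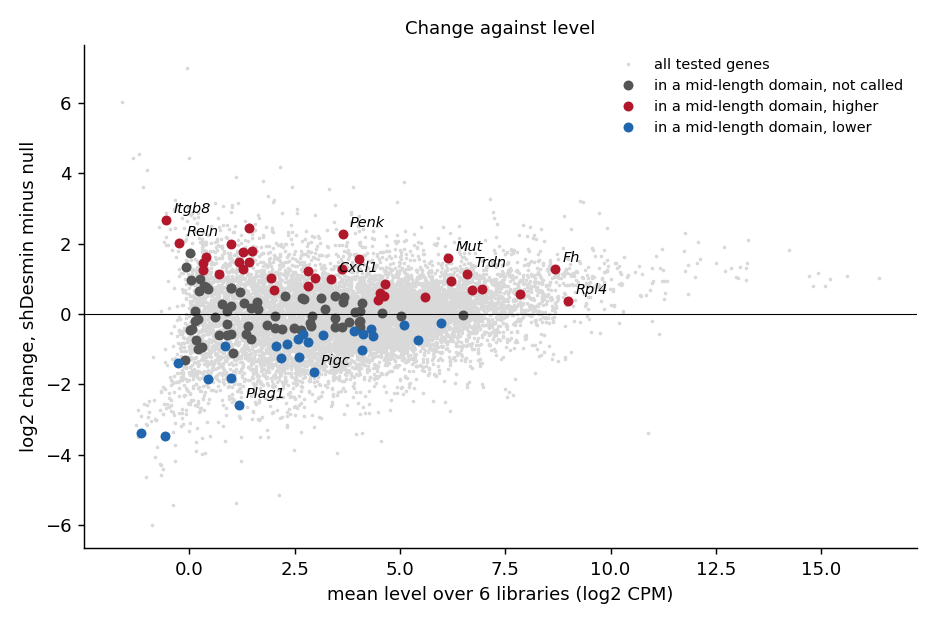
Log2 change, shDesmin minus null, against the mean level over 6 libraries (log2 CPM). Grey dots are all tested genes and larger points the 125 tested genes of mid-length domains, coloured by call. Of these, 14 lie at 5 log2 CPM or more, and 9 of the 14 were higher in shDesmin RNA, against 45.1% of all tested genes at that level.

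Of the 9 members of at least 5 log2 CPM that were higher, Mut, Fh, Mrpl3 and Mrpl13 encode mitochondrial proteins, and the others were Trdn, Ppp2r1a, Rpl4, Rfwd2 and Epdr1. Mut, the mitochondrial methylmalonyl-CoA mutase, lies at chr9:23323936-23352668 inside a domain at chr9:23082001-23673599. It had 6.96, 6.94 and 6.90 log2 CPM in shDesmin and 5.58, 5.22 and 5.24 log2 CPM in null libraries, without overlap (log2 change 1.59, SE 0.11, limma adjusted p 8.4e-07). This is a 3.00-fold difference, and the libraries of each group lay close together. Its divergent neighbour Cenpq, a subunit of the centromere complex that underlies the kinetochore, lies 2.1 kb from Mut by the table's rn6 positions and stood at 1.13, 0.65 and 1.34 log2 CPM in shDesmin and 0.58, -1.01 and -0.76 log2 CPM in null libraries (log2 change 1.44, limma adjusted p 0.022). This call was lost without null replicate 2 or 3 or without shDesmin replicate 1 or 3. Fh (chr13:93651484-93677377) rose by a log2 change of 1.27 (SE 0.10, limma adjusted p 1.9e-06), with 9.24, 9.46 and 9.27 log2 CPM in shDesmin against 7.91, 8.09 and 8.17 log2 CPM in null libraries. Mrpl3 averaged 7.30 ± 0.09 log2 CPM in shDesmin and 6.59 ± 0.06 log2 CPM in null libraries (SD, n = 3 each; log2 change 0.70, limma adjusted p 5.7e-05). Mrpl13 averaged 7.05 ± 0.19 and Mtbp, the gene of an MDM2-binding protein, 5.07 ± 0.22 log2 CPM in shDesmin, against 6.35 ± 0.13 and 4.22 ± 0.05 log2 CPM in null libraries (log2 changes 0.69 and 0.85, limma adjusted p 0.00035 and 0.00024). Both lie in the domain chr7:95062801-95422799 and overlap by 78 bp, where unstranded reads could be counted for either. None of 26 nuclear-encoded genes of oxidative phosphorylation in the table lay in a domain of the numbered chromosomes. Domains on the X chromosome were not counted for this list. All 26 were higher in shDesmin RNA. Scaled to library totals, Mut and Fh stayed higher, Mtbp and Cenpq lost the call, and Mrpl3 and Mrpl13 had log2 changes of -0.01 and -0.02.

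Of the calcium-handling list, 22 genes were in the table (16 higher, 2 lower) and only Trdn lay in a mid-length domain. Trdn encodes triadin, which anchors calsequestrin to the ryanodine receptor at the junctional sarcoplasmic reticulum. It lies at chr1:25403390-25839345, 78.2% of it inside a domain at chr1:24852001-25744199. It had 7.06, 7.29 and 7.14 log2 CPM in shDesmin and 6.06, 5.99 and 6.04 log2 CPM in null libraries. Every shDesmin library was above every null library (log2 change 1.13, SE 0.09, limma adjusted p 2.4e-06), and the call held in each fit with 1 library left out. No gene of the sarcomere list (23 in the table, 19 higher, 1 lower) lay in a domain of the numbered chromosomes. The same held for the lamina and LINC complex list (23 in the table, 5 higher, 5 lower). Domains on the X chromosome were not counted for these lists. Neb, the thin-filament ruler of skeletal muscle, was inside a mid-length domain with a mean of 1.19 log2 CPM and was not called (log2 change 0.61). Of 26 cardiac and developmental transcription factors only Tbx18 lay in a mid-length domain, at 0.56 ± 0.74 log2 CPM in shDesmin and -0.10 ± 0.17 log2 CPM in null libraries (SD, n = 3 each; limma adjusted p 0.22). Of 11 guidance and growth factor genes only Bmp3 did (log2 change -0.15, limma adjusted p 0.81). No listed cadherin or adhesion gene (13 in the table), matrix gene (16) or neuronal gene (2) did.

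Penk encodes proenkephalin, the precursor of the enkephalin opioid peptides, and lies at chr5:17056419-17061837, 299 kb from the nearer edge of its domain (chr5:16759801-17597999). It had 4.60, 5.05 and 4.68 log2 CPM in shDesmin and 2.12, 2.71 and 2.68 log2 CPM in null libraries, a 4.84-fold difference (log2 change 2.28, SE 0.20, limma adjusted p 3.1e-06). Penk had the largest rise among members of at least 3 log2 CPM. In the same domain Plag1, a zinc finger transcription factor gene 257 kb away, went the other way. It had 6, 7 and 6 reads in shDesmin against 63, 62 and 78 reads in null libraries (log2 change -2.6, SE 0.29, limma adjusted p 2.1e-05). Chchd7, between them, was not called (log2 change -0.12, limma adjusted p 0.59). Genes of 1 domain thus changed in opposite directions.

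The domain chr14:18481801-19100399 holds a chemokine cluster and Mthfd2l, a mitochondrial enzyme of one-carbon metabolism. Cxcl1, a neutrophil-attracting chemokine, had 3.87, 3.69 and 3.99 log2 CPM in shDesmin and 2.66, 3.15 and 2.75 log2 CPM in null libraries (log2 change 1.00, SE 0.18, limma adjusted p 0.00063). Cxcl3 was also higher (log2 change 1.28, limma adjusted p 0.0098), and Cxcl2, at 0.64, 0.16 and 1.61 log2 CPM in shDesmin and -0.62, 0.29 and 0.61 log2 CPM in null libraries, was not called (log2 change 0.71, limma adjusted p 0.22). The Cxcl2 groups overlapped, and its reads were few. Mthfd2l had 30, 29 and 28 reads in shDesmin and 12, 8 and 17 reads in null libraries (log2 change 1.98, limma adjusted p 0.00032). The 3 called genes of this domain were all higher, while Areg, in the same domain, had too few reads for the test. Cxcl1 and Cxcl2 were the only members of the interferon and chemokine list inside a mid-length domain, of 17 in the table (8 higher, 2 lower). Scaled to library totals, the calls of Cxcl1 and Cxcl3 were lost. The cardiomyocyte, fibroblast, endothelial, and smooth muscle and pericyte sums given above moved the same way as these genes. The macrophage and leukocyte sum and the Schwann and neuronal sum moved the other way. The part of any of these cell types in the chemokine changes was not tested.

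**Figure D4:**
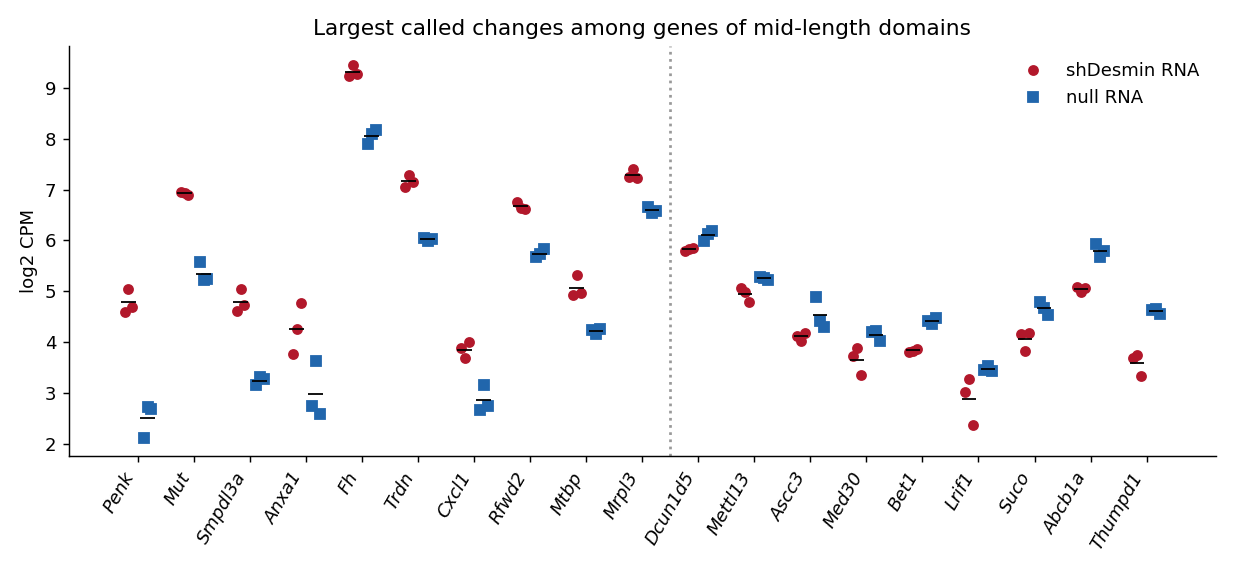
Level (log2 CPM) of the largest called changes among genes of mid-length domains with at least 3 log2 CPM, ordered by change; circles are the 3 shDesmin and squares the 3 null libraries, with black lines for means. The dotted line parts 10 rises, led by Penk at a log2 change of 2.28, from 9 falls, of which Thumpd1 at -1.02 is the largest.

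Smpdl3a, a phosphodiesterase related to acid sphingomyelinase, averaged 4.79 ± 0.23 log2 CPM in shDesmin and 3.24 ± 0.08 log2 CPM in null libraries (SD, n = 3 each; log2 change 1.55, limma adjusted p 6.9e-06). Anxa1, a calcium-dependent phospholipid-binding protein of inflammation, had 3.77, 4.26 and 4.76 log2 CPM in shDesmin and 2.73, 3.64 and 2.59 log2 CPM in null libraries (log2 change 1.28, limma adjusted p 0.0029). Its libraries were more spread than those of Smpdl3a but did not overlap. Rfwd2, the ubiquitin ligase also called COP1, averaged 6.67 ± 0.08 log2 CPM in shDesmin and 5.74 ± 0.09 log2 CPM in null libraries (log2 change 0.93, limma adjusted p 1.1e-05). Ppp2r1a had 8.16, 8.14 and 8.09 log2 CPM in shDesmin and 7.65, 7.52 and 7.55 log2 CPM in null libraries (log2 change 0.56, limma adjusted p 0.00019). With library totals the calls of Anxa1 and Rfwd2 were lost and Ppp2r1a had a log2 change of -0.15.

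Several of the largest changes rested on very few reads, and outside the rule for naming they were chosen after their values were seen. The 2 largest were falls of genes without a common name. RGD1309870 had 4, 0 and 1 reads in shDesmin and 21, 37 and 25 reads in null libraries (log2 change -3.47, SE 0.71, limma adjusted p 0.0014). AABR07033920.1, a processed pseudogene whose reads may be shared with its parent gene, had 0, 1 and 1 reads in shDesmin and 18, 12 and 24 reads in null libraries (log2 change -3.38). Both were lower in every shDesmin library than in any null library. Itgb8, an integrin subunit that activates latent TGF-β, had 13, 12 and 12 reads in shDesmin and 5, 4 and 1 reads in null libraries (log2 change 2.66, SE 0.59, limma adjusted p 0.0024). Reln, the secreted glycoprotein reelin, had 13, 10 and 14 reads in shDesmin and 15, 2 and 3 reads in null libraries (log2 change 2.02, SE 0.62, limma adjusted p 0.015). Its raw reads overlapped between groups while its scaled levels did not, and the call was lost without null replicate 2. Pde4d, a cAMP-specific phosphodiesterase of the heart, spans 910 kb, 88.8% of it in a domain of 857 kb, and was higher (log2 change 1.47, limma adjusted p 0.0016). With library totals the calls of Reln and Pde4d were lost.

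The domain with the most tested genes, chr13:79677001-80573399, held 4 genes that were all lower and 1 that was not called. Suco, whose product carries a SUN-type domain, had 4.16, 3.83 and 4.17 log2 CPM in shDesmin and 4.79, 4.68 and 4.54 log2 CPM in null libraries (log2 change -0.62, limma adjusted p 0.0028). Pigc, an enzyme of GPI-anchor synthesis, had 1.97, 1.81 and 2.6 log2 CPM in shDesmin and 3.67, 3.66 and 4.0 log2 CPM in null libraries (log2 change -1.65, limma adjusted p 9.2e-05). Both genes were lower in every shDesmin library than in any null library. Mettl13, the methyltransferase of translation factor eEF1A, was lower by a small amount (log2 change -0.31, limma adjusted p 0.030), a call lost without shDesmin replicate 2 or 3, without null replicate 2 or 3, and under median centring and quantile normalization. Rn50_13_0847.2 (log2 change -1.26) overlaps Suco by 1072 bp, so the reads of the pair cannot be told apart without strand. Vamp4, a SNARE of the trans-Golgi network, was not called (log2 change 0.02, limma adjusted p 0.92).

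Thumpd1, an adaptor for tRNA acetylation, averaged 3.59 ± 0.23 log2 CPM in shDesmin and 4.61 ± 0.06 log2 CPM in null libraries (SD, n = 3 each; log2 change -1.02, limma adjusted p 0.00013). Abcb1a, a P-glycoprotein drug exporter, had 5.09, 4.98 and 5.07 log2 CPM in shDesmin and 5.94, 5.67 and 5.78 log2 CPM in null libraries (log2 change -0.75, limma adjusted p 0.00013), with 56.1% of the gene covered. Bet1, a SNARE of transport between endoplasmic reticulum and Golgi, averaged 3.84 ± 0.03 log2 CPM in shDesmin and 4.42 ± 0.06 log2 CPM in null libraries (log2 change -0.58, limma adjusted p 0.0019). These 3 genes were lower in every fit with 1 library left out. Gtf3c3, a subunit of RNA polymerase III factor TFIIIC, fell by a log2 change of 1.22 (limma adjusted p 0.00037). Med30, of the Mediator complex (log2 change -0.49), Lrif1, a partner of HP1 proteins (-0.59), Ascc3, a helicase of the ASC-1 complex (-0.42), and Dcun1d5, of cullin neddylation (-0.27), were called with adjusted p from 0.021 to 0.040. These 4 calls were each lost in 2 or more of the fits without 1 library: Med30 without null replicate 2 or shDesmin replicate 3, Lrif1 in all but that without shDesmin replicate 2, Ascc3 in all but that without null replicate 3, and Dcun1d5 in all but that without null replicate 1. They were also lost under median centring. Of 4 Zfp-named zinc finger genes inside, 2 were lower (Zfp772 and Zfp322a), 1 higher (Zfp606) and 1 not called (Zfp51). Over all 201 tested genes so named 17 were higher and 94 lower. The call of Zfp772 was lost without null replicate 2 or 3, that of Zfp322a without null replicate 1 or 3 or shDesmin replicate 2, and that of Zfp606 without shDesmin replicate 1.

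Genes of 1 domain did not always move together. At least 2 called genes lay in 10 domains, of which 4 had only higher, 2 only lower and 4 both. Beside the Mut, Mrpl13 and Cxcl1 domains, the fourth with higher calls was chr8:69062401-69409799, where Rpl4, Snapc5 (a subunit of the snRNA-activating complex), Zwilch (a kinetochore protein) and Map2k1 (the kinase MEK1) lie within 72.8 kb. Rpl4 had 9.06, 9.32 and 9.14 log2 CPM in shDesmin and 8.56, 8.89 and 8.96 log2 CPM in null libraries, a log2 change of 0.37 (limma adjusted p 0.018) that turned to -0.34 with quantile normalization and with library totals, and lost its call without shDesmin replicate 2. Snapc5, 0.902 kb from Rpl4, was higher (log2 change 1.04, limma adjusted p 0.0019), a call lost with library totals, while Zwilch and Map2k1 were not called (log2 changes 0.22 and -0.02). Adjacent genes at a distance of a few kilobases thus differed in call, but differences between their changes were not tested. The SE was 0.35 for Zwilch and 0.12 for Rpl4. The second domain with only lower calls, chr7:750601-1484999, held Arl13b, a GTPase of primary cilia (log2 change -0.85, limma adjusted p 0.0078), and Pros1, the anticoagulant protein S (-0.80, limma adjusted p 0.0037). In chr14:22924801-23739599, Ythdc1, a reader of N6-methyladenosine in RNA, Uba6, a ubiquitin-activating enzyme, and Tmprss11d, a membrane serine protease, were not called (log2 changes -0.06, -0.37 and -1.30). Cenpc, a centromere protein, was lower there (log2 change -0.56, limma adjusted p 0.039), a call lost in all fits without 1 library except that without null replicate 2. The mixed domains were those of Penk and Plag1, of Ppp2r1a and LOC100365363 (a call lost without null replicate 1 or 3 or shDesmin replicate 1 or 3, and with the replicate number as a block), of Tmem123 and Dcun1d5, and of Mipol1 and LOC314140, where the last pair overlaps by 8135 bp and its reads cannot be assigned without strand.

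The median change differed with position in the domain. Among 27 tested genes with their midpoint under 50 kb from the nearer edge, 3 were higher and 9 lower, with a median log2 change of -0.28. These 27 include Ascc3, called lower, whose midpoint lay outside, between a pair of domains that cover parts of it. At 50 to 150 kb, 14 were higher and 8 lower of 47 (median -0.02), and beyond 150 kb 18 were higher and 7 lower of 51 (median 0.46). The called share was 44.4%, 46.8% and 49.0% from the edge inward. With each library scaled to its total of reads the counts pointed lower in every bin, with 1 higher and 16 lower under 50 kb, 7 and 25 at 50 to 150 kb, and 3 and 18 beyond 150 kb, and the medians were -0.99, -0.73 and -0.25, beside -0.75 over all tested genes. Genes called higher had a median depth of 153 kb, and genes called lower had one of 76.0 kb. The order of the 3 medians was the same in all 16 other fits, but some of them could not alter it. The fits with no gene filter, with no trend in eBayes and with a block for the replicate number keep each gene's log2 change. Median centring and library totals move all genes alike. The difference between the deepest and the outermost bin, 0.74 in log2 change, ranged from 0.50 to 0.82 over the 16 fits. With 1 library left out it ranged from 0.59 to 0.77, and the 8 lower genes of the middle bin became 5 without null replicate 3 or without shDesmin replicate 3. The median level was 1.40, 2.49 and 2.26 log2 CPM from the edge inward, and of genes of at least 3 log2 CPM the median log2 changes were -0.30 (10 genes), 0.19 (16 genes) and 0.42 (18 genes). In megabase domains the medians were -0.07 (24 genes), 0.48 (29 genes) and 0.13 (160 genes) in the same bins, and in shorter domains they were 0.02 under 50 kb (39 genes) and 0.39 at 50 to 150 kb (13 genes). Outside, 66 tested genes under 50 kb from a mid-length domain had a median log2 change of 0.23 (23 higher, 13 lower) and a median level of 3.66 log2 CPM. The differences between bins and between classes were not tested, genes of 1 domain are not independent, and what level, gene identity or cell makeup contributed was not tested.

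**Figure D5:**
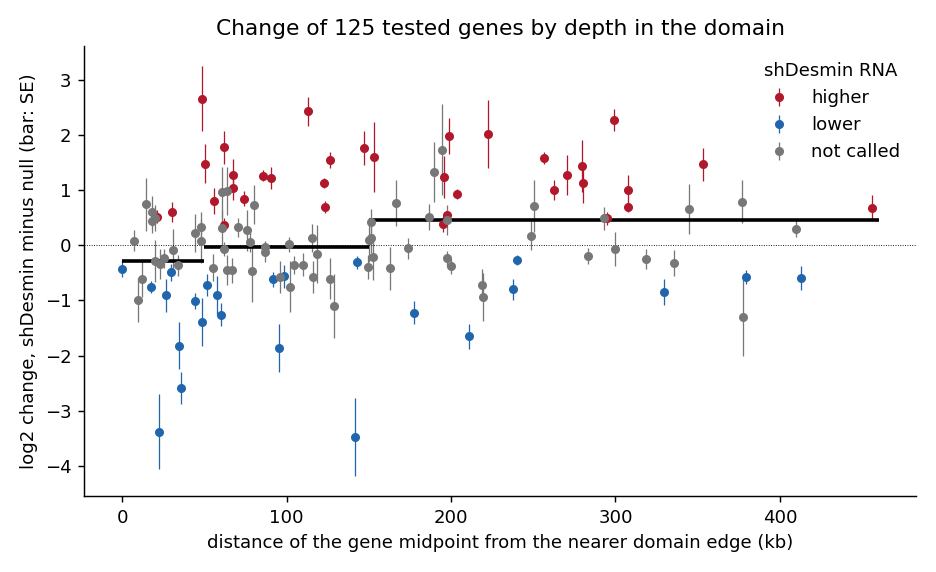
Log2 change, shDesmin minus null, of the 125 tested genes against the distance of the gene midpoint from the nearer domain edge (kb); bars are standard errors, colours the call, and thick black lines the medians of the bins under 50, 50 to 150 and over 150 kb. The medians are -0.28, -0.02 and 0.46. Ascc3, which spans parts of a pair of domains with its midpoint between them, is drawn at 0.

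Many genes that neighbour the tested ones had no values analysed here. In 21 domains with at least 2 genes of the RNA table, RefSeq's gene order on GRCr8 places 96 protein-coding genes between the outermost such genes, of which 55 are in the table and 41 are not analysed here. In the domain of Tmem123 and Dcun1d5 on chromosome 8 these are 11 genes, 10 of them matrix metalloproteinase genes such as Mmp3, Mmp13 and Mmp7. In the domain of Ythdc1 on chromosome 14 they are 8, 6 of them serine protease genes of the Tmprss11 family beside Gnrhr, the receptor of gonadotropin-releasing hormone. In the chemokine domain Ereg and Epgn, the genes of 2 EGF-family ligands beside Areg, are among 3 such genes. In 7 of the 21 domains every such gene was in the table.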

How the data were processed

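Levels and changes come from 3 shDesmin and 3 null RNA libraries, and domains from the control LAD list. The authors deposited the RNA values as log2 numbers. The submitters' processing notes list, without giving each a step, the tools Trimmomatic 0.32, STAR 2.6.0c, featureCounts, edgeR, limma, BWA, Picard, SAMtools, bedtools and deepTools. Checked on the values, 100% of them give whole reads plus 0.5 within 0.001 reads, so a constant of 5.70 shared by all libraries was subtracted, which leaves log2 CPM under the authors' scaling. A count of 3 reads, what a count of 0 allows, equals 0.23 to 0.45 CPM for counting error only. The deposited LAD list holds starts and ends in bp on rn6 (an other unit, with no score), from pooled replicates with input, per the labels. The authors' deposited comparison holds a signed fold score, a t score, and raw and adjusted p-values, per the file headers, and served as an alternative only.

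Genes were tested where at least 3 of the 6 libraries exceeded 0 log2 CPM, which kept 11033 of 11383. The model was limma 3.58.1 under R 4.3.3 (lmFit and trended eBayes) with group alone, two-sided, with Benjamini-Hochberg adjustment at 0.05. It was checked on simulated counts with the same spread setting for all genes and few changed genes. That check does not give the error rate in these data. The offset of 0.5 reads shrinks the changes of genes with few reads. Tables were handled in Python 3.11.15 with pandas 2.3.3. Gene positions come from the RNA table, without strand, and domain starts are written 1-based. The rule for members uses length and chromosome alone, but this rule and the gene lists were set with earlier results of these data known. Named genes were the 10 largest rises and falls (9 falls qualified) among called genes of at least 3 log2 CPM whose groups did not overlap, the 5 highest levels, the genes of the domains with the most tested genes (4 domains, since 3 tied), and up to 3 members per list. Others stand for a domain's calls or were chosen after their values were seen. Replicates of a group were no duplicates (chi-square over degrees of freedom 4.94 to 36.7), and each counted as 1 sample. Deviations of same-numbered libraries correlated at 0.13, -0.07 and -0.17. With 3 libraries per group these values cannot decide whether the numbers pair libraries, so a fit with the number as a block is given below. RefSeq's GRCr8 promoter table matched 86 of the 125 tested members (68.8%, under the 80% needed), so no promoter composition is compared over the members. ChIP signal of single samples was not used.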

Additional observations from a re-analysis of the deposited data

How the results depend on the processing

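Of the 59 calls, 26 held in every one of 17 other settings that tested the gene (16 fits and the authors' deposited table), 39 in all but scaling to library totals, and 40 in every fit with 1 library left out. Scaling to library totals moved the median of all tested genes by -0.71 in log2 change, to -0.75 (members -0.62), and gave 11 higher and 59 lower members (802 and 6892 of all tested genes). With that scaling the log2 change turned negative for Mrpl13 (-0.018), Otud6b (-0.11), Mbip (-0.030), Rpl4 (-0.34), Tmem123 (-0.19), Ppp2r1a (-0.15), Mrpl3 (-0.0072), Lrba (-0.32) and Epdr1 (-0.22), and for Rpl4 also with quantile normalization (-0.34). The median log2 change of members (0.09) was 0.19 with array weights, 0.017 with a filter above 2 log2 CPM and 0.017 with no filter, 0.27 with median centring, 0.050 with a pseudocount of 2 CPM, 0.23 with quantile normalization and 0.050 in the authors' deposited table. Over all tested genes the median was -0.037 with array weights, -0.032 with that filter, -0.059 with no filter and 0.14 with median centring. It was -0.035 with that pseudocount, 0.0030 with quantile normalization and -0.058 in the authors' deposited comparison, beside -0.04 in the main fit. The median of members was 0.10 for domains from 250 kb and 0.16 with gaps under 100 kb joined first. It was 0.19 for genes with any base covered, 0.061 for wholly covered genes, and 0.018 to 0.21 with 1 library left out. Joined gaps left 98 tested members, of which 29 were higher and 15 lower, against 35 and 24 of 125. The median level was 1.46 log2 CPM for domains of 300 to 800 kb, 1.97 with joined gaps and 2.29 with any base covered. Median centring and library totals move all genes alike, and the cause of the other differences was not tested. With the replicate number as a block, 37 members were higher and 25 lower with a median log2 change of 0.09, and 1 call, that of LOC100365363, was lost. limma voom on the recovered reads, chosen after seeing the data, kept 57 calls. The planned edgeR test was not run, since the deposited unit is log2. Below 3 log2 CPM lay 64.8% of the tested members, and the part of read depth in the calls was not tested.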

Other observations

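Genes with under 50% of their length in a mid-length domain were left out of the counts above. They were 38 genes with a median length of 151 kb, and 37 were tested. Of these 13 were higher and 7 lower in shDesmin RNA (54.1% called), with a median log2 change of 0.42, where 27.5% of all tested genes were higher and 31.4% lower (58.9% called). Oxct1, which activates ketone bodies, averaged 10.69 ± 0.06 log2 CPM in shDesmin and 9.16 ± 0.18 log2 CPM in null libraries (SD, n = 3 each; log2 change 1.54, limma adjusted p 8.2e-07), with 4.43% of the gene covered. Bckdhb, a subunit of the branched-chain ketoacid dehydrogenase, averaged 8.35 ± 0.08 log2 CPM in shDesmin and 6.64 ± 0.14 log2 CPM in null libraries (log2 change 1.71, limma adjusted p 1.8e-07), with 18.8% covered. Suclg2, a subunit of succinyl-CoA synthetase, had a log2 change of 1.22 with 0.70% covered, and Xirp2, an actin-binding protein of the intercalated disc, one of 0.55 with 5.83% covered. The 2 genes nearest below the limit were Ptprr (49.99% covered, log2 change -1.01) and Tfg (49.7%, -0.63), and the 2 nearest above it were Vps41 (54.6%, 0.09) and Prkd1 (55.8%, 0.44), which were not called. These genes were chosen after their values were seen.

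The X chromosome was not among the members. Its 157 domains held 52 of 300 kb to under 1 Mb, with 17 tested genes inside, 4 higher and 5 lower in shDesmin RNA, against 27.5% higher and 31.4% lower of all tested genes, and a median log2 change of -0.12. Hccs, the mitochondrial holocytochrome c synthase, averaged 6.45 ± 0.06 log2 CPM in shDesmin and 5.06 ± 0.22 log2 CPM in null libraries (SD, n = 3 each; log2 change 1.39, limma adjusted p 3.1e-06).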
